A study of Homo sapiens with 4 samples.

Results

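Mind bomb and Neuralized proteins are the ubiquitin ligases known for acting on the ligands of Notch, and the 5 human genes described here, MIB1, MIB2, NEURL1, NEURL1B and NEURL4, were chosen by name from the 58302 genes in the deposited tables. The RNA came from NCI-H838, a human non-small-cell lung cancer cell line, whose genome carried a piggyBac insert. The insert supplied a MIB1 guide RNA, and Cas9 once doxycycline (dox) was added, and cells holding it had been selected with puromycin. These MIB1-iKO cells were grown from single cells, so they carry the properties of a clone, and both groups carry the transposon. The no dox group (n = 2 libraries) kept MIB1, and the dox group (n = 2 libraries) received 0.5 µg/mL of dox for 3 days. No group without the guide or without Cas9 was analysed here, so dox itself and the loss of MIB1 cannot be told apart. The comparison asked how far MIB1 transcripts fell and whether a relative of MIB1 rose in its place.

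A cell that presents a Delta or Jagged ligand must pull on the Notch receptor of its neighbour to start signaling, and it does so by taking the ligand up into clathrin-coated vesicles. Ubiquitin added to the tail of the ligand by Mind bomb or Neuralized marks it for this uptake. MIB1 is the main ligase of this kind in mammals, MIB2 is its close relative, and NEURL1 and NEURL1B are the counterparts of the fly gene neuralized. NEURL4 carries Neuralized repeats but no RING domain, the module that recruits the ubiquitin-loaded enzyme, and is known from centrioles, the barrels of microtubules at the base of cilia.

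The coding starts of MIB1 and MIB2 are shown because the study's guides match inside the first of them and because the longest run of bases that the coding sequences of both genes share, 20 bases printed in capitals, lies in the same stretch. Both are given on the plus strand of GRCh38 from the ATG of the canonical GENCODE transcript. The first 200 coding bases of MIB1 lie at chr18:21741584-21741783 in exon 1, and the first 150 of MIB2 at chr1:1623453-1623602 in exon 3.
MIB1: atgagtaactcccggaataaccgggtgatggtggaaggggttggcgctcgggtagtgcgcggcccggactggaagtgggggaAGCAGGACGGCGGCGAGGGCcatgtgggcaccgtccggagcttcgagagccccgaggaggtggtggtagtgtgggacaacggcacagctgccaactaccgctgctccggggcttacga
MIB2: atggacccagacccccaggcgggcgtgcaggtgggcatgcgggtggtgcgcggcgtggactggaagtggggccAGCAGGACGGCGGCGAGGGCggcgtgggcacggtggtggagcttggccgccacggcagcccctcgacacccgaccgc
The shared run begins at coding base 83 of MIB1 and at coding base 74 of MIB2, in the part of both genes that encodes the N-terminal ligand-binding region. Over 2795 aligned coding bases the pair was 52.3% identical. The libraries were read in 50-base single-end reads, longer than this run. Of the 13296 windows of 50 bases in MIB1 transcripts, 0 occurred in transcripts of another gene, and 0 of 9649 windows of MIB2 occurred in another of the 5 genes, although 44 (0.456%) occurred in transcripts of genes outside the family. Reads of one Mind bomb gene could therefore not match the other without a mismatch. The study's alignment allowed some mismatches, and windows alike but for mismatches were not counted.

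The Neuralized genes are printed near their 3′ coding ends, where NEURL1, NEURL1B and MIB2 all encode a RING domain. In the first pair the capitals mark the 21 bases that NEURL1 (chr10:103590211-103590271) and NEURL1B (chr5:172686767-172686827) share, the longest run common to any pair of the 5 coding sequences. In the second pair they mark the 17 bases shared by MIB2 (chr1:1630459-1630515) and NEURL1 (chr10:103590295-103590351), and all 4 stretches are on the plus strand of GRCh38.
NEURL1: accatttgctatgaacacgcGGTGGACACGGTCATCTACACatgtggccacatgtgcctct
NEURL1B: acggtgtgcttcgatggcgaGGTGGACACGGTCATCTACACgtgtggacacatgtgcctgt
MIB2: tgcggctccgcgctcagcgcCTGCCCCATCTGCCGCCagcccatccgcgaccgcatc
NEURL1: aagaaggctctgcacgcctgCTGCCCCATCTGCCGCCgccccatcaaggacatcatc
NEURL1 and NEURL1B were 63.8% identical over 1614 aligned coding bases. No 50-base window was shared between any of the 5 genes, and those of NEURL1 (5179) and NEURL1B (6473) occurred in 0 transcripts of other genes. NEURL4 was the exception outside the family: 1035 of its 6668 windows (15.5%) also occur in ENSG00000261915, a protein-coding gene annotated on the same strand over 1128 of its exon bases.

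MIB1 (ENSG00000101752, chr18:21704957-21870953, plus strand, 21 exons in the canonical transcript) was the target of the guide and checks the labels. Its reads numbered 598 and 588 in no dox replicates 1 and 2 and 90 and 59 in dox replicates 1 and 2. In RPKM, the authors' read counts per kilobase of gene model, scaled to library depth, the levels were 2.66, 2.81, 0.617 and 0.340 in the same order. Both dox libraries were low and the groups lay far apart. The mean was 2.73 ± 0.104 RPKM (SD, n = 2) without dox and 0.478 ± 0.196 RPKM (SD, n = 2) with dox, so 17.5% of the level remained. In limma on voom-weighted counts, MIB1 fell by 2.58 on the log2 scale with a standard error of 0.23 (adjusted p = 0.000375), to 0.167 of the no dox level with a 95% interval from 0.118 to 0.236. The call required at least a 2-fold change with an adjusted p no higher than 0.05. MIB1 was the 1 member called of the 4 that had enough reads to test, where 0.0371% of all 16181 genes tested were called, 0.0247% higher and 0.0124% lower. By the adjusted p alone it was again 1 member of 4, beside 0.068% of all genes, and its adjusted p ranked 1 among them.

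The dox libraries also differed from each other in what was left of MIB1. In CPM, the counts scaled to a common library total, dox replicate 1 kept 5.65 and dox replicate 2 kept 3.46, and the exact Poisson 95% intervals of their reads, 72.4 to 111 and 44.9 to 76.1, overlapped narrowly although the library with fewer reads of MIB1 was the deeper of the pair. These intervals cover counting error only. The counts are totals per gene, so they hold no information on edits in the first exon, and in RNA from a whole culture a lower level in every cell cannot be told apart from loss in a share of the cells. Protein was not measured in these files.

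MIB2 (ENSG00000197530, chr1:1615454-1630605, plus strand, 20 exons) is the member closest to MIB1 in domain layout and the first candidate to take its place. Its read counts were 338 and 261 without dox, against 227 and 303 with it. These were 13.9 and 12.3 CPM without dox and 14.2 and 17.8 CPM with dox, and the RPKM were 3.70 and 3.07 against 3.83 and 4.30. Both dox libraries thus stood above both no dox libraries, but the nearest values of the groups were close together. In RPKM the groups failed to overlap for each of the 4 members tested, and they did so in 38.6% of all genes tested, and 18.1% of genes were separated in the direction of MIB2. In CPM, where MIB1 and MIB2 were the 2 of 4 members without overlap, these shares were 36.1% and 18.7%, with 17.4% in the direction of MIB1. The mean was 3.38 ± 0.448 RPKM without and 4.06 ± 0.331 RPKM with dox (SD, n = 2 per group), or 1.2 times as much. The log2 fold change was 0.29 (SE 0.17, adjusted p = 0.643 by limma), which is 1.23-fold with a 95% interval from 0.948 to 1.59. The test was not passed, and a doubling of MIB2 lay outside the interval. MIB1 lost 2.25 RPKM, less than the level of MIB2 without dox, so a gain short of a doubling would equal that loss in RPKM. That gain would still be above 1.59-fold, the upper end of the interval in the fit of all 4 libraries. In CPM per kilobase of all GENCODE exons, MIB1 went from 1.97 without dox to 0.343 with dox, and MIB2 stood at 1.5 without dox. By that length a gain equal to the loss would be more than a doubling. Smaller gains, of up to 1.59-fold, remain possible. Among all genes tested, 26.3% had a change at least as large as that of MIB2 in either direction.

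NEURL1 (ENSG00000107954, chr10:103493705-103592546, plus strand, 6 exons) encodes a RING ligase that binds Notch ligands through its Neuralized repeats. It had 446 and 433 reads without dox, against 233 and 340 with dox. The RPKM were 4.40 and 4.59 without dox and 3.54 and 4.35 with dox, so dox replicate 1 was low and dox replicate 2 lay next to the no dox libraries. In CPM, which does not carry the authors' further scaling, the groups overlapped (18.3 and 20.4 against 14.6 and 19.9). The mean was 4.49 ± 0.131 RPKM without and 3.95 ± 0.569 RPKM with dox (SD, n = 2 per group), and the log2 fold change was -0.17 (SE 0.16, adjusted p = 0.786 by limma). The 95% interval ran from 0.70-fold to 1.12-fold. Without dox replicate 1 the log2 fold change was -0.03.

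NEURL1B (ENSG00000214357, chr5:172641263-172691540, plus strand, 5 exons), the nearest relative of NEURL1, was close to absent. It had 2 and 0 reads without dox, against 1 and 4 with dox, and it was left out of the test for low counts. With 0 reads, up to 3 reads remain possible at this depth. A level of 3 reads was worth between 0.0199 and 0.0306 RPKM in the libraries where it could be computed, so no fold is given. NEURL1B was near this limit in both groups, and no library with dox showed it at the level of any other member. A processed pseudogene, ENSG00000253683, lies within its span on the opposite strand without sharing exon bases, and had 70, 66, 58 and 72 reads.

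NEURL4 (ENSG00000215041, chr17:7315628-7329393, minus strand, 29 exons) partners with the centriole protein CP110 and the ligase HERC2. It had 70 and 61 reads without dox, against 16 and 49 with dox. The RPKM were 0.566 and 0.529 without dox and 0.199 and 0.513 with dox. Dox replicate 1 was far below the others, whereas in CPM dox replicate 2 (2.87) lay between the no dox libraries (2.87 and 2.88). The exact Poisson 95% interval of the 16 reads ran from 9.15 to 26.0 reads. The mean was 0.548 ± 0.0258 RPKM without and 0.356 ± 0.222 RPKM with dox (SD, n = 2 per group), and the log2 fold change was -0.79 (SE 0.39, adjusted p = 0.569 by limma). This value rested on dox replicate 1: without it the log2 fold change was -0.09, and without dox replicate 2 it was -1.52. ENSG00000261915, with which NEURL4 shares sequence, had 0, 4, 0 and 0 reads, and how the authors' counting assigned reads common to both is not given in the sources used here.

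**Figure D1:**
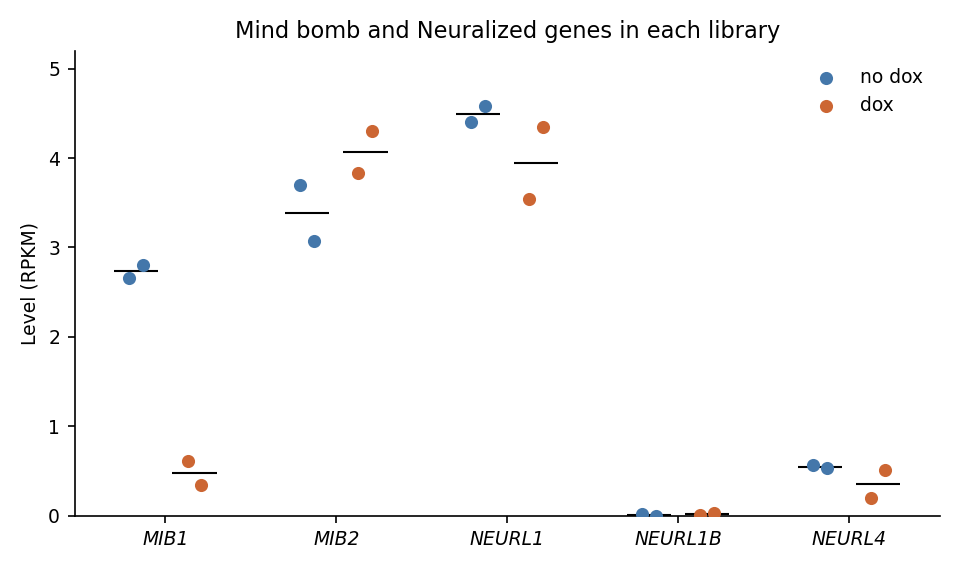
Level of each ligase gene in RPKM (vertical axis, from 0) in the 2 no dox libraries (blue) and the 2 dox libraries (orange), with a black line at each group mean. MIB1 drops from 2.73 to 0.478, the points of MIB2 and NEURL1 lie close to each other across the groups, NEURL1B lies at the axis, and 1 dox library of NEURL4 is low at 0.199.

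Ordered by RPKM without dox, NEURL1 stood highest, followed by MIB2, MIB1, NEURL4 and NEURL1B, and no neighbours in this order overlapped. With dox NEURL1 (3.54 to 4.35) and MIB2 (3.83 to 4.30) overlapped, as did MIB1 (0.340 to 0.617) and NEURL4 (0.199 to 0.513), so that MIB1 stood at the level of NEURL4. The rank of MIB1 and MIB2 depended on the length assigned to the genes. The authors' RPKM imply a gene model of 9222 bases for MIB1 and 3744 for MIB2, while the exons of all GENCODE transcripts cover 13258 and 8723. In CPM per kilobase of the latter, MIB1 stood at 1.97 and MIB2 at 1.5 without dox, the reverse order. NEURL1 was highest without dox by either length.

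The summed level of the 5 genes contains MIB1, so a fall of MIB1 lowers it by construction. Between the dox libraries it did not follow MIB1, since the sum was higher in replicate 2, where MIB1 was lower. The sum was 11.3 and 11.0 RPKM without dox and 8.20 and 9.54 RPKM with dox, a mean of 11.2 ± 0.247 against 8.87 ± 0.944 (SD, n = 2 in each group), and both dox libraries were lower. Leaving MIB1 out, the sum was 8.68, 8.18, 7.58 and 9.20 RPKM in the 4 libraries, and the group means of 8.43 and 8.39 differed by less than the spread between replicates. MIB1 made up 23.4% and 25.5% of the sum without dox and 7.52% and 3.56% with dox. The share of MIB2 went from 30.3 ± 3.34% to 45.9 ± 1.15% (SD, n = 2 in each group), while its own level did not pass the test. Of the Mind bomb pair alone, MIB1 held 41.8% and 47.8% without dox and 13.9% and 7.33% with dox, and the pair together stood at 6.36 and 5.87 RPKM without dox and at 4.45 and 4.64 RPKM with dox. The mean gain of MIB2 in RPKM equalled 30.2% of the mean loss of MIB1, or 20.3% with the GENCODE exon lengths, and that gain did not pass the test. This share rested on single libraries, being 16.8% without no dox replicate 2, 21.1% without dox replicate 2, 38.3% without dox replicate 1 and 42.9% without no dox replicate 1. The smallest p that an exact two-sided permutation test of 2 libraries against 2 allows is 0.333, so these sums and shares are given without a test.

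**Figure D2:**
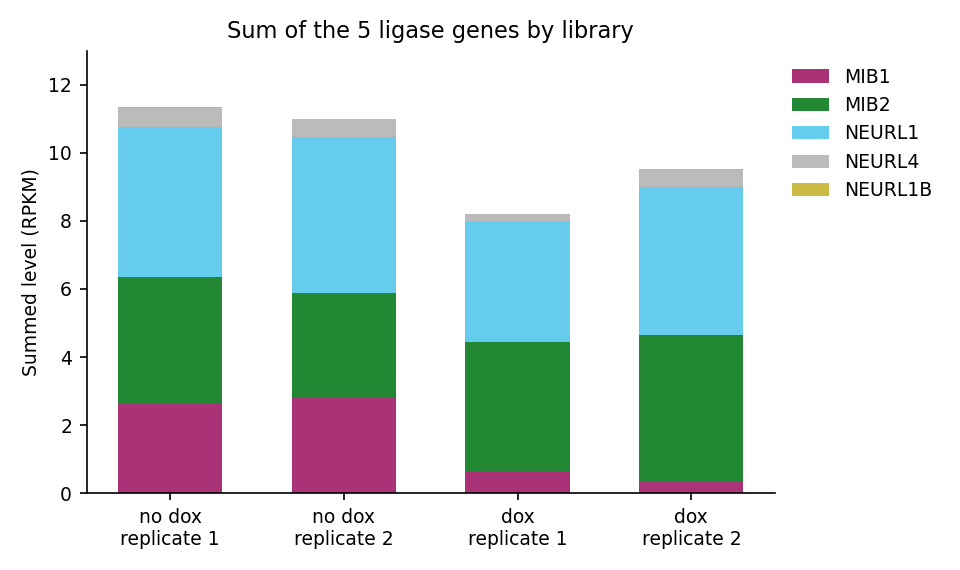
Summed level in RPKM (vertical axis, from 0) of the 5 ligase genes in each of the 4 libraries, with each gene as a coloured part of the bar. The part of MIB1 shrinks in both dox bars, the other parts together remain between 7.58 and 9.20 RPKM, and NEURL1B is too small to see.

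**Figure D3:**
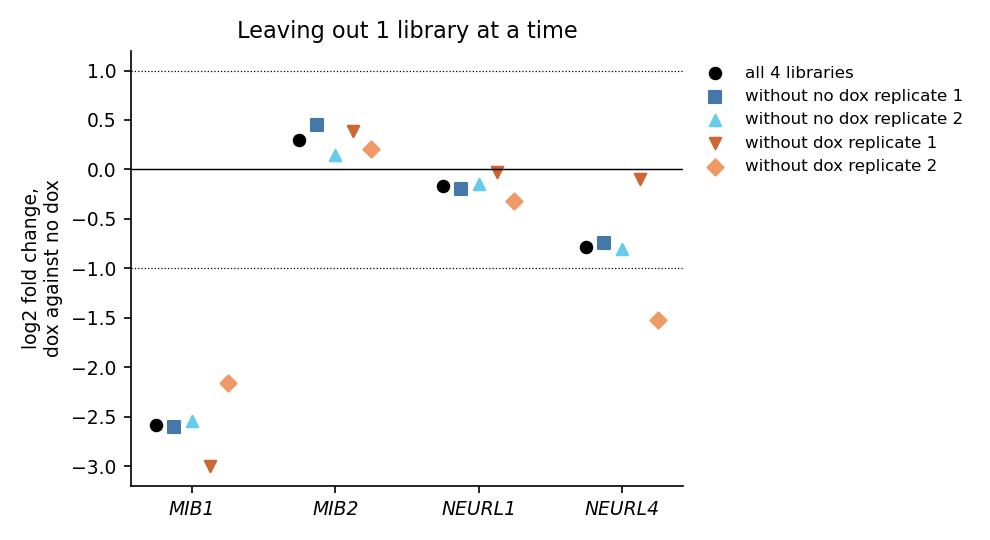
Log2 fold change, dox against no dox (vertical axis), of the 4 ligase genes tested, from all 4 libraries (black) and with 1 library left out at a time (coloured marks); dotted lines mark a 2-fold change. MIB1 remains between -2.998 and -2.16, MIB2 above 0 between 0.14 and 0.45, and NEURL4 moves between -1.52 and -0.09.

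Leaving out 1 library at a time kept the sign of each of the 4 genes. MIB2 ranged from 0.14, without no dox replicate 2, to 0.45, without no dox replicate 1, and in 2 of these 4 fits the value moved by over 1.5 times: without no dox replicate 1 and without no dox replicate 2. NEURL1 ranged from -0.32, without dox replicate 2, to -0.03, without dox replicate 1.

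Whether the counting used strand is not stated, and how many reads the members share with antisense genes was not tested. ENSG00000272106, a long noncoding RNA on the strand opposite to MIB2, shares 180 exon bases with it, which is 2.06% of MIB2's. It had 51, 39, 17 and 43 reads and a log2 fold change of -0.32 (adjusted p = 0.853 by limma). ENSG00000253445, antisense to NEURL1B over 383 exon bases, had 0 reads in all 4 libraries. MIB1 and NEURL1 shared no exon bases with another annotated gene.

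The genes around the ligases in the pathway were then compared through lists typed from general knowledge, 69 genes without the members, of which 63 were tested. Of these, 0 were called by limma, and 8 of 63 (12.7%) had an unadjusted p under 0.05 beside 9.28% of all genes tested. Their median log2 fold change was 0.01, beside -0.00042 for all genes, with 34 above 0 and 29 below, and the lowest adjusted p was 0.370.

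The Notch ligands are the substrates of the ligases. DLL3, an atypical ligand that does not activate Notch in trans, was the most abundant of them, with 5.54 and 4.35 RPKM without dox and 4.61 and 4.31 with dox, overlapping groups and a log2 fold change of -0.13 (adjusted p = 0.882 by limma). JAG2 had 274 and 228 reads without dox, against 124 and 126 with dox. Its RPKM of 2.00 and 1.79 without dox and 1.39 and 1.19 with dox did not overlap, and the log2 fold change was -0.54 (SE 0.19, adjusted p = 0.403 by limma). JAG1, at 1.67, 2.11, 1.79 and 2.71 RPKM, overlapped between the groups. The classical Delta ligands DLL1 and DLL4 had at most 1 and 5 reads in a library and were not tested; they and JAG1 were picked out after their values were seen. Of the 3 ligands tested 1 lay above 0 and 2 below, with a median of -0.13, and 0 were called.

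The uptake of ubiquitinated ligand needs epsins, which bind ubiquitin, together with clathrin, its adaptor AP-2 and dynamin. Of these 14 genes 13 were tested and 0 called, and all log2 fold changes lay between -0.15 and 0.20. AP2M1, the medium chain of AP-2, was the most abundant at 259 ± 19.5 RPKM without and 276 ± 12.0 RPKM with dox (SD, n = 2 per group). EPN1, the epsin gene with the smallest p, had 1.30 and 1.56 RPKM without dox, against 1.62 and 1.59 with dox, and a log2 fold change of 0.20 (adjusted p = 0.721 by limma).

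On the receiving side, 0 of 8 genes for Notch receptors and their nuclear complex were called. NOTCH3, the most abundant receptor, stood at 8.27 ± 0.501 RPKM without and 8.80 ± 0.166 RPKM with dox (SD, n = 2 per group), with an adjusted p of 0.793 by limma. MAML2, a coactivator of the Notch complex, had 15 and 33 reads without dox, against 31 and 45 with dox. Its RPKM of 0.0898 and 0.212 without dox and 0.286 and 0.349 with dox did not overlap, and the log2 fold change was 1.16 (SE 0.42, adjusted p = 0.398 by limma). Of the 8 genes for ADAM proteases and γ-secretase, which cut Notch, 0 were called and 7 lay below 0. NCSTN, the most abundant, had a log2 fold change of -0.000611 (adjusted p = 1.0 by limma), and PSEN2 had one of -0.23 (adjusted p = 0.685 by limma).

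Of 8 Notch target genes, 5 were tested and 0 called. HES1, the classical Notch-induced repressor, had 4.48 and 3.68 RPKM without dox and 5.61 and 6.33 with dox. Both dox libraries were higher, with a log2 fold change of 0.56 and a standard error of 0.20 (adjusted p = 0.407 by limma). HEY1, picked out after its values were seen because it also had an unadjusted p under 0.05, had 72, 77, 67 and 124 reads. Its RPKM of 1.19 and 1.36 without dox and 1.71 and 2.65 with dox did not overlap, and the log2 fold change was 0.74 (adjusted p = 0.415 by limma). HES4, the most abundant target at 33.1 ± 1.88 RPKM without dox and 36.3 ± 4.31 with dox (SD, n = 2 in each group), had one of 0.15 (adjusted p = 0.781 by limma). The list had 3 genes above 0 and 2 below.

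The ligases and adaptors that act on the Notch receptor instead of on its ligands form a second ubiquitin branch of the pathway. Of 14 such genes 13 were tested and 0 called. NEDD4L stood at 2.34 and 2.36 RPKM without dox and 2.89 and 3.02 RPKM with dox, groups that did not overlap, and its log2 fold change was 0.35 (SE 0.13, adjusted p = 0.437 by limma). ITCH, the most abundant, had one of 0.06 (adjusted p = 0.932 by limma).

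MIB1 has further substrates and partners away from Notch. EPB41L5, a polarity protein known as a MIB1 substrate, had 803 and 755 reads without dox, against 422 and 426 with dox. Its RPKM were 4.19 and 4.23 against 3.40 and 2.88, both lower with dox, and its log2 fold change was -0.41 (SE 0.14, adjusted p = 0.370 by limma), short of the threshold. RYK, a Wnt co-receptor, was the most abundant of the list and had a log2 fold change of 0.11 (adjusted p = 0.822 by limma). GABARAP, an autophagy protein picked out after its values were seen, had 12.4 and 10.5 RPKM without dox, 15.1 and 14.2 with dox and a log2 fold change of 0.39 (adjusted p = 0.407 by limma). Of the 8 genes 0 were called, 5 lay above 0 and 3 below.

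The partners of NEURL4 and the remaining Neuralized-repeat genes were compared last. HERC2 had 72, 62, 76 and 72 reads. Its RPKM of 0.200 and 0.185 without dox and 0.325 and 0.259 with dox did not overlap, and the log2 fold change was 0.57 (SE 0.26, adjusted p = 0.526 by limma). CCP110, the gene of CP110, had one of 0.05 (adjusted p = 0.951 by limma), and 0 of the 3 partners were called. NEURL2, a muscle-related adaptor with a Neuralized repeat, had 202 and 156 reads without dox, against 106 and 82 with dox. Its RPKM were 6.73 and 5.58 without dox and 5.44 and 3.54 with dox, and its log2 fold change was -0.48 (SE 0.24, adjusted p = 0.568 by limma). NEURL3, with 24, 6, 9 and 25 reads, had one of 0.66 (adjusted p = 0.792 by limma), and its groups overlapped.

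**Figure D4:**
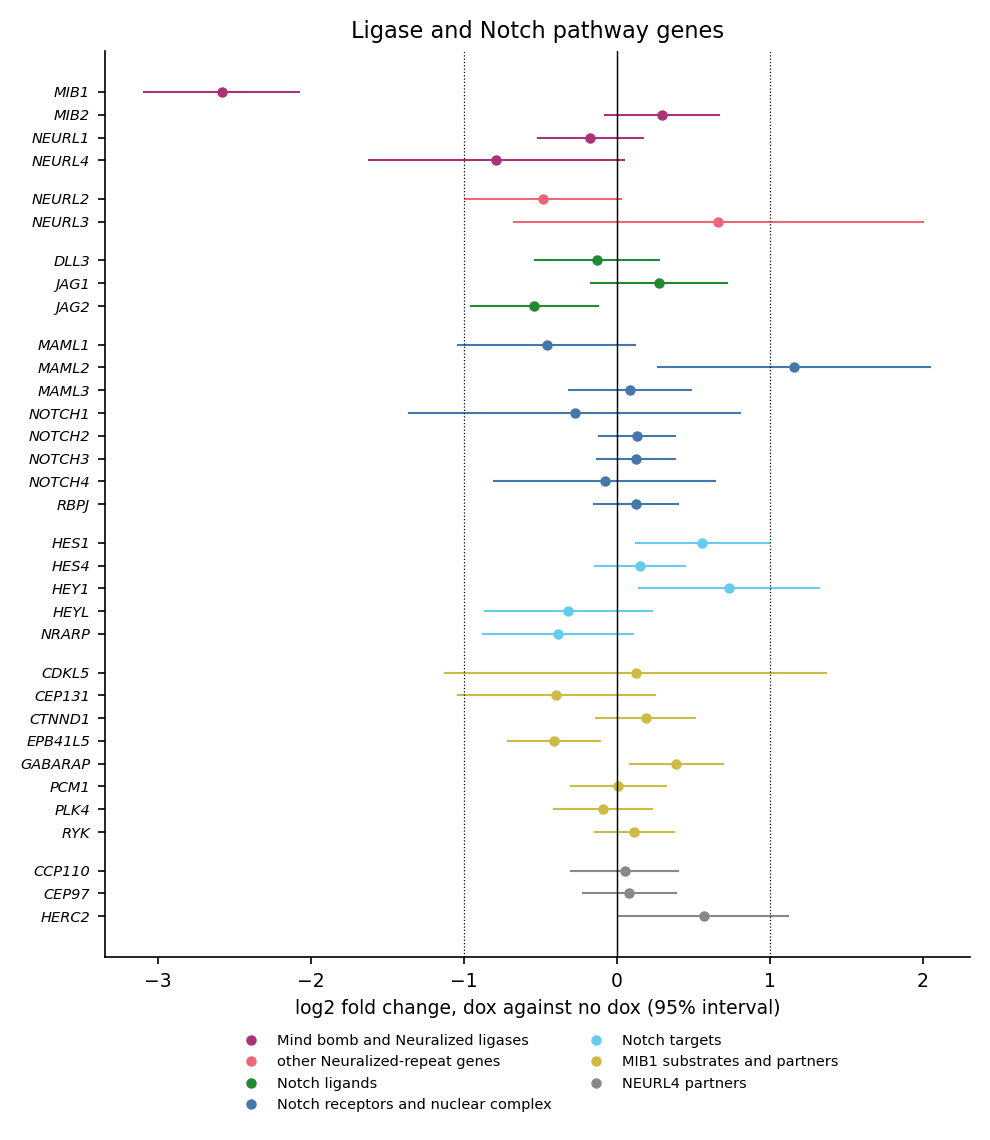
Log2 fold change, dox against no dox (horizontal axis), with its 95% interval from limma for the tested ligase genes and 6 of the pathway lists, coloured by list; dotted lines mark a 2-fold change. MIB1 at -2.58 stands alone to the left, and the other genes lie between -0.79 and 1.16.

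The 5 genes whose profile over the 4 libraries lay nearest to that of MIB1, by Euclidean distance of centred log2 CPM among 12343 genes, were S100A8 (distance 1.12), ZNF860 (1.15), ENSG00000213959 (1.26), XAGE2 (1.35) and ENSG00000273338 (1.54). The profile of MIB1 itself had a length of 2.60 on this scale. Each was lower in both dox libraries: S100A8 had 1364, 1032, 404 and 237 reads, and ZNF860 had 98, 100, 26 and 25. They were chosen for this pattern, and with 4 libraries in 2 groups the likeness describes little more than a lower level with dox.

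Total counts per library ranged from 15943025 to 24398411 and were lower in both dox libraries. Of 6 epithelial markers, KRT19 had 0 reads in all 4 libraries, and the summed level of the list was 116 and 125 RPKM without dox and 103 and 107 RPKM with dox. Of the 5 tested 0 were called, 3 lay above 0 and 2 below. Those below were KRT8 (-0.34, adjusted p = 0.362 by limma) and KRT18 (-0.41, adjusted p = 0.339 by limma), each lower in RPKM in both dox libraries and picked out after the values were seen. Of 4 lung lineage genes, NKX2-1 and SCGB1A1 also had 0 reads in all 4 libraries, and SFTPC never exceeded 8. FOXJ1, the 1 gene of this list tested, was present, with a group mean of 2.29 RPKM for no dox and 2.69 RPKM for dox. It was not called, at a log2 fold change of 0.25 (adjusted p = 0.778 by limma). SFTPC and FOXJ1 were added after the values were seen. The 8 markers of blood, endothelial and stromal cells summed to 0.678 and 0.710 RPKM without dox and 0.299 and 0.856 RPKM with dox, with PTPRC and CD68 at 0. COL1A1, picked out after the values were seen, held most of this sum, at 0.563 and 0.557 RPKM without dox and 0.215 and 0.681 RPKM with dox. The part of these marker genes in the results was not tested.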

How the data were processed

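RNA-seq of NCI-H838 MIB1-iKO cells was analysed from 2 no dox and 2 dox libraries, grouped by their labels. As the methods of the study describe, the authors discarded ribosomal reads, used GSNAP for alignment to GRCh38 and HTSeqGenie for counting over gene exons. The deposited counts are unnormalized whole numbers. The authors' deposited RPKM divide them by gene length and depth with a further scaling per library: relative to no dox replicate 1 their factors were 0.932, 0.649 and 0.771, against 0.869, 0.653 and 0.699 for the totals. RPKM served for levels and the counts for tests. The methods name a RefSeq annotation while the identifiers are Ensembl's. The kit used for these samples and the use of strand are not stated.

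Symbols, positions and sequences came from GENCODE release 44 on GRCh38, in which 57532 of 58302 identifiers had a symbol. The guides are not printed. Genes kept by filterByExpr (16181) were fitted after quantile normalization and voom weighting in limma 3.58.1 under R 4.3.3, after the study's methods. The tests were two-sided, with Benjamini-Hochberg adjustment over all genes. The fit was also run on simulated counts. These had the same variation beyond counting error in every gene and no effect of replicate number, so they do not cover such an effect. Alternatives were edgeR 4.0.16, DESeq2 1.42.0, TMM, library size only, other filters, limma on log2-transformed RPKM with a pseudocount of 0.1 or 1, a block for the replicate number and leaving out each library. Levels per GENCODE exon length and leaving out libraries for the gain of MIB2 relative to the loss of MIB1 were added after the data were seen. The members and lists were chosen with earlier results of these data known. Named genes are the members, of each list any gene called or else that with the smallest p and that with the highest RPKM, genes overlapping a member, and the 5 nearest to MIB1 among genes averaging 50 or more counts; exceptions are marked. The p-values rest on the spread between these samples, which the study calls biological replicates. In limma the spread of each gene was moderated toward that of all genes tested, so it is not the gene's own alone. No library repeated another: the chi-square per degree of freedom was 8.18 or more for each pair. Poisson intervals and the limit of 3 reads cover counting error only, since reads were not marked by molecule.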

Additional observations from a re-analysis of the deposited data

How the results depend on the processing

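MIB2 and NEURL1 kept their sign and were not called in each of the 14 alternatives. NEURL4 was not called in the 13 that tested it, and it fell under a mean count of 50 in the other. Several alternatives, given below, called 0 genes in all, so they could not have called a member and say nothing on this. The adjusted p alone was a looser threshold on the main fit, so no sign could change there. Over the alternatives the adjusted p ranged from 0.243 to 0.995 for MIB2, from 0.503 to 0.999 for NEURL1 and from 0.24 to 0.999 for NEURL4. NEURL4 was smaller by over 1.5 times on log2(RPKM + 1), at -0.20. MIB1 kept its sign in 14 alternatives and its call in 7. These include the adjusted p alone, under which a gene called in the main fit cannot lose its call. Outside the fits with 1 library left out, MIB1 had adjusted p from 9.61e-20 (DESeq2) to 0.613 (limma). It was not called with no count filter (-2.58, adjusted p = 0.613), on log2(RPKM + 0.1) (-2.33, 0.108) or on log2(RPKM + 1) (-1.34, 0.0962), where limma called 0 genes in all; 2092, 1442 and 1438 had an unadjusted p under 0.05, and the cause was not tested. edgeR, TMM, library size only and a mean count of at least 50 called 6 genes each, DESeq2 5, and an adjusted p alone 11. The pathway lists held 0 called genes in each of the 14 alternatives, a count that includes the alternatives that called 0 genes in all. Of their genes, 8 had an unadjusted p under 0.05 in limma with all 4 libraries.

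With 1 library left out, limma called 0 genes in each of the 4 fits (797 to 998 at an unadjusted p under 0.05), with 1 residual degree of freedom and the lone sample assumed to vary like the other group. MIB1 then ranged from -2.998 to -2.16 and was not called. Its share of the summed RPKM ranged from 23.4% to 25.5% without dox and from 3.56% to 7.52% with dox. In CPM in place of RPKM, the mean share was 42.5% instead of 24.5% without dox and 11.8% instead of 5.54% with dox, since longer genes weigh more. The mean ratio of MIB1 to MIB2 without dox was 0.817 in RPKM and 1.32 per GENCODE exon length, chosen after seeing the data.

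The labels do not say what a replicate number stands for. Same-numbered libraries deviated together (r = 0.351 over 12344 genes, which are not independent), but there are 2 pairs only, so no pairing was assumed. The chi-square per degree of freedom was 8.26 and 8.18 for these pairs, lower than between replicates (9.34 without dox, 13.1 with dox). With the replicate block limma called 78 genes, and 1154 passed the adjusted p alone. MIB1 stood at -2.53 (adjusted p = 6.08e-17), and MIB2 at 0.29 (0.243), NEURL1 at -0.17 (0.503) and NEURL4 at -0.67 (0.240) were not called. Depth limits NEURL1B, with at most 4 reads, and NEURL4, with a mean of 49 reads.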
